A study of Mus musculus with 15 samples.

Results

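The 10 genes described here, Atf4, Ddit3, Trib3, Asns, Chac1, Sesn2, Ppp1r15a, Xbp1, Hspa5 and Herpud1, belong to the ATF4 branch of the integrated stress response and to the unfolded protein response of the endoplasmic reticulum (ER). They were taken by symbol from the 55421 genes with a count in the deposited tables. RNA was sequenced from CD4+ T cells of C57BL/6 background that were sorted from the spleen or the mesenteric lymph nodes (mLN) of Rag2-/- mice, which lack T and B cells of their own, 6 weeks after transfer of naive T cells. Donors were young adult littermates. All donors carried floxed Prkaa1 alleles (PRKAA1fl/fl), which encode the AMPKα1 kinase subunit. WT donors had no Cre, whereas KO donors carried CD4-Cre, which deletes the floxed gene in all T cells from the CD4+CD8+ thymocyte stage, so an effect of the Cre transgene cannot be told apart from that of the deletion. The transferred cells cause colitis, and cells from before the transfer were not analysed here. Spleen was represented by 4 WT and 4 KO samples, and mLN by 3 WT samples (replicates 1, 2 and 4) and 4 KO samples. Replicates were mice of 1 experiment, so p-values measure the spread between these mice. For T cell receptor sequencing, the paper compared spleen and mLN of each mouse, so both organs may share mice here too. Whether a replicate number marks the same mouse in both organs is not stated. Fits without a replicate block treat spleen and mLN samples as independent, which they may not be.

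The integrated stress response begins when a stress-sensing kinase phosphorylates the initiation factor eIF2, which lowers general translation but favours translation of the transcription factor ATF4. ATF4 then turns on genes for amino acid supply and redox balance, together with genes that feed back on the response. Misfolded protein in the ER activates this branch through the kinase PERK and, in parallel, the IRE1-XBP1 and ATF6 branches, which raise ER chaperones and degradation factors. The RNA level of Atf4 or Xbp1 therefore reports only part of their activity: ATF4 is controlled in translation, and XBP1 by an unconventional splice that a count per gene does not resolve.

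The regulatory sequences through which these branches act were looked up in the promoters (250 bases before to 50 after the RefSeq start site, GRCm38.p6), since the genes differ in which element they carry. All 10 members were matched. Each window below is written 5′ to 3′ on the strand of its gene, with the match in capitals. The C/EBP-ATF response element bound by ATF4 (CARE, TGATGNAAN on either strand) was in the promoters of 4 of the 10 members and in 3.95% of all 32851 promoters. The ER stress response element (ERSE), searched like the others on both strands, was in 1 member and 0.119% of all promoters, and its shorter form ERSE-II in 1 member and 0.0365%. The core of the XBP1 element (TGACGTGG) was in 0 members and 0.676% of all promoters. Matches of this kind are descriptions of letters, not evidence of binding.
Chac1, CARE, chr2:119351033-119351071, plus strand: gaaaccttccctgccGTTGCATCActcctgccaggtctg
Trib3, CARE, chr2:152344024-152344062, minus strand: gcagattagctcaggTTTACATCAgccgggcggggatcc
Asns, CARE, chr6:7693209-7693247, minus strand: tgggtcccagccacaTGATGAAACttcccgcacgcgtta
Herpud1, CARE, chr8:94386301-94386339, plus strand: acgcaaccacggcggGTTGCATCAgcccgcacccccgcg
Herpud1, ERSE-II, chr8:94386362-94386402, plus strand: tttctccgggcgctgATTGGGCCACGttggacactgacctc
Hspa5, ERSE, chr2:34772010-34772058, plus strand: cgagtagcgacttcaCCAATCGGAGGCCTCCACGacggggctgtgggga
Herpud1 was the one member with matches to both kinds of element, the CARE from -113 to -105 and the ERSE-II from -52 to -42 relative to its start. The CARE of Trib3 lay from 13 to 21 by the RefSeq start, which is upstream of the GENCODE start of the gene. By the GENCODE starts of their genes, the CARE of Asns and the ERSE of Hspa5 instead lay downstream.

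Between 9363940 and 11283439 reads per sample lay on genes (median 10545309), and levels are given as counts per 1e+06 of these reads (CPM). The deletion was visible in every KO sample: Prkaa1 had 46.3 to 54.1 CPM in WT spleen and 18.4 to 21.7 CPM in KO spleen, and 49.0 to 60.9 CPM in WT mLN and 21.4 to 32.2 CPM in KO mLN (log2 fold change -1.33, adjusted p = 7.63e-05 in spleen; -0.95, adjusted p = 0.0372 in mLN, edgeR). Within KO cells, Prkaa1 was higher in mLN than in spleen (means 27.7 and 20.1 CPM), called by both edgeR and DESeq2. In WT cells it was not called between the organs (53.3 and 51.1 CPM). The part of this difference in the results was not tested. The 8 T cell markers summed to between 8231 and 10338 CPM and were the highest of the marker lists. The summed B cell markers (1.47 to 8.32 CPM, 5 genes) were low, with Ms4a1 at 3 reads or fewer in each sample of both mLN groups and of KO spleen. Pax5, however, was at 3 reads or fewer in the WT mLN samples and at a mean of 2.998 CPM in KO mLN, the one B cell marker called between genotypes there (adjusted p = 0.0372, edgeR). Plasma cell markers summed to 51.1 to 589 CPM, mostly Ighm. Of this list, Mzb1 and Tnfrsf17 were at 3 reads or fewer in every sample. Jchain passed 3 reads only in WT mLN and Igha only in mLN, whereas Sdc1 did so in every group but WT spleen. Dendritic markers summed to 18.6 to 36.2 CPM, and stromal markers to 64.7 to 133 CPM, mostly Pecam1. Erythroid markers were uneven, at 73.9 to 1488 CPM in WT spleen against 32.4 to 80.7 CPM in KO spleen, and 17.4 to 624 CPM in WT mLN against 13.8 to 55.3 CPM in KO mLN. Myeloid markers were at 188 to 640 CPM in spleen and 95.9 to 245 CPM in mLN. The part of these cells in the results was not tested.

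Per kilobase of exon, the mean level over the 15 samples was highest for Hspa5 (319 ± 59.1 CPM per kb, SD), the ER chaperone BiP, followed by Xbp1 (79.1 ± 11.2), which encodes the transcription factor of the IRE1 branch, and Herpud1 (66.5 ± 8.18), a membrane protein of ER-associated degradation. The ranges of Xbp1 and Herpud1 overlapped, whereas Hspa5 stood above both in every sample. Atf4 (31.7 ± 5.94 CPM per kb), Ppp1r15a (18.9 ± 7.21) and Ddit3 (12.8 ± 2.46) came next, each overlapping its neighbour. Ppp1r15a and Ddit3 could not be ordered, since Ddit3 was higher on average in KO mLN (15.7 against 10.1). Per kilobase of the longest annotated transcript, Ddit3 was also the higher over all samples (22.6 against 19.8). Asns (6.05 ± 1.22 CPM per kb) and Sesn2 (5.90 ± 2.70) could not be ordered: Asns was higher on average in WT mLN (7.07 against 2.46), and Sesn2 in KO spleen (8.74 against 5.22). Trib3 (1.38 ± 0.420 CPM per kb) and Chac1 (0.139 ± 0.146) were lowest.

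In the comparison of KO with WT cells, which asks what loss of AMPKα1 changes in expanded T cells, Sesn2 differed most among the members, with higher levels in KO cells of both organs. Ppp1r15a was the other member whose groups separated, and it did so in mLN, where KO cells had less. None of the 9 members tested passed an adjusted p of 0.05 by edgeR in either organ. In spleen 3 members (Sesn2, Atf4 and Ppp1r15a) had an unadjusted p under 0.05 and DESeq2 called 1, Sesn2. In mLN 3 members (Sesn2, Ppp1r15a and Hspa5) had an unadjusted p under 0.05 and DESeq2 called 2, Sesn2 and Ppp1r15a. Over all genes tested in spleen, edgeR called 0.547% higher and 0.751% lower in KO cells, and in mLN 0.348% higher and 0.292% lower. At an unadjusted p under 0.05 were 20.5% of all genes in spleen and 15.7% in mLN, and DESeq2 called 5.77% and 4.11%, so that these counts over 9 members are given as a description. The median log2 fold change of the members was 0.17 in spleen and 0.13 in mLN, against -0.0041 and -0.0038 over all genes tested. In bulk RNA of this kind, fewer cells with a transcript and less of it per cell cannot be told apart.

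**Figure D1:**
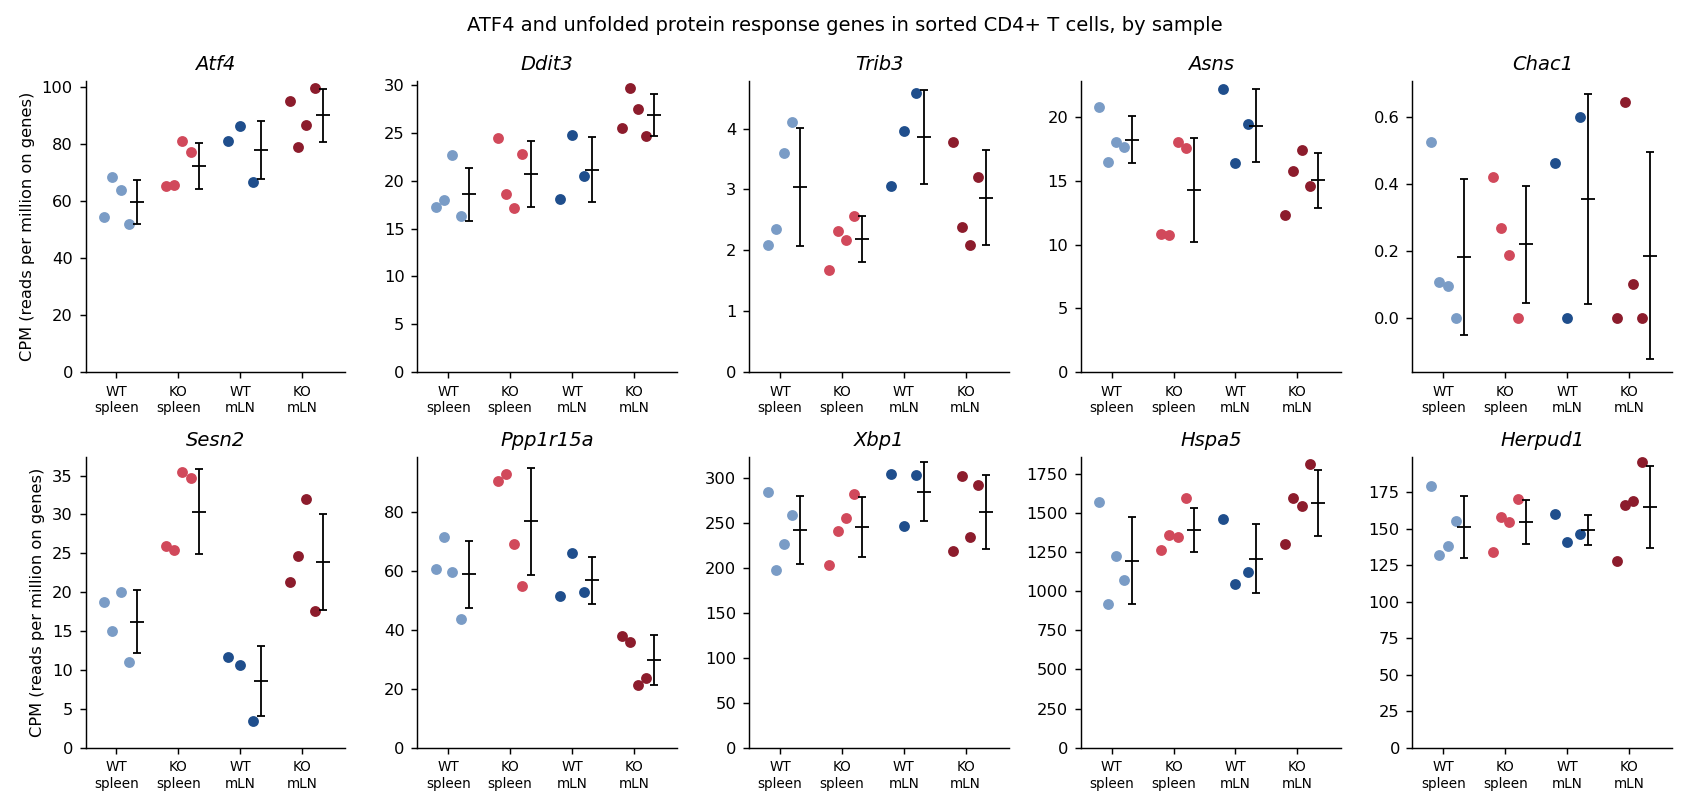
Level of each member in every sample, as CPM (vertical axis, one panel per gene), for WT spleen, KO spleen, WT mLN and KO mLN; points are samples and the black bar is the mean with its SD. Sesn2 is higher in all KO than in all WT samples of the same organ, and Ppp1r15a is lowest in the 4 KO mLN samples (21.2 to 38.1 CPM).

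Sesn2 (ENSMUSG00000028893, chr4:132492032-132510501, minus strand) encodes sestrin 2, a stress-induced leucine sensor that restrains mTORC1 and is a target of ATF4 and of p53. Its level was 18.74, 15.06, 20.01 and 11.03 CPM in the WT spleen samples and 25.9, 25.4, 35.5 and 34.7 CPM in the KO spleen samples. In mLN it was 11.6, 10.6 and 3.39 CPM in WT and 21.3, 24.6, 32.0 and 17.6 CPM in KO samples. Every KO sample lay above every WT sample of its organ, which 12.0% of all genes tested in spleen and 14.4% in mLN also did in one direction or the other. The means were 16.2 ± 4.04 (SD, n = 4) and 30.4 ± 5.45 CPM (n = 4) in spleen, a log2 fold change of 0.92 (SE 0.20, adjusted p = 0.0566 by edgeR and 0.00115 by DESeq2). In mLN they were 8.54 ± 4.49 (n = 3) and 23.9 ± 6.14 CPM (n = 4), a log2 fold change of 1.47 (SE 0.36, adjusted p = 0.102 by edgeR and 0.00210 by DESeq2). WT mLN replicate 4, with 34 reads on the gene, was lowest, and without it the mLN log2 fold change was 1.09 (adjusted p = 0.172, edgeR). Leaving out WT spleen replicate 3 took the spleen difference past the limit (1.05, adjusted p = 0.0364, edgeR), and with all 15 samples in one fit the adjusted p was 0.150 in spleen and 0.0266 in mLN. The difference between the organs in the KO effect (0.54, SE 0.43) was not past the test (unadjusted p = 0.227, edgeR).

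Ppp1r15a (ENSMUSG00000040435, chr7:45522916-45526268, minus strand) encodes GADD34, the stress-induced subunit that directs protein phosphatase 1 to eIF2 and so ends the response. It was at 60.7, 71.6, 59.6 and 43.7 CPM in WT spleen and at 90.6, 93.1, 69.1 and 54.9 CPM in KO spleen. In mLN the WT samples had 51.7, 66.1 and 52.9 CPM and the KO samples 38.1, 36.0, 21.2 and 23.6 CPM. The spleen groups overlapped, whereas every KO mLN sample lay below every sample of the other groups. KO against WT gave a log2 fold change of 0.40 in spleen (SE 0.18, adjusted p = 0.239, edgeR) and of -0.94 in mLN (SE 0.21, adjusted p = 0.0770 by edgeR and 0.00171 by DESeq2). Leaving out KO mLN replicate 1 took the mLN difference past the limit (-1.09, adjusted p = 0.0488, edgeR).

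The estimates of the KO effect on Ppp1r15a had opposite signs in the organs. The mLN value minus the spleen value was -1.34 on the log2 scale (SE 0.29, unadjusted p = 0.000322), which ranked 3 by p among 15438 genes tested. After adjustment it was not called by edgeR (adjusted p = 0.825), which called 0 genes (0%) in this test and had 652 (4.22%) at an unadjusted p under 0.05. DESeq2 called it (adjusted p = 0.0424) among 0.0259% of all genes. A fit with the replicate as a block also called it (adjusted p = 0.0185) among 0.0194% of all genes. That fit paired the organs by replicate number in both genotypes. It thus keeps the pairing of WT samples described below, but it also pairs the KO samples, whose same-numbered samples correlated less closely across organs. None of the other 8 members tested had an unadjusted p under 0.05 for this difference.

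Between the organs, Ppp1r15a was the member with the largest fold change in KO cells and the smallest in WT cells. KO cells had a mean of 29.7 ± 8.55 CPM in mLN and 76.9 ± 18.2 CPM in spleen (SD, n = 4 each). The log2 fold change was -1.36 (SE 0.21, adjusted p = 0.000861, edgeR), and the call held with each of the 8 samples left out (-1.51 to -1.22). This fit treated the spleen and mLN samples as independent, although they may share mice. WT cells had 56.9 ± 7.96 CPM in mLN (n = 3) and 58.9 ± 11.5 CPM in spleen (n = 4), a log2 fold change of -0.01 (SE 0.16, adjusted p = 0.966), where Sesn2 had the largest (-0.89, SE 0.38, adjusted p = 0.133). The other member past the test was Atf4, higher in mLN than in spleen in WT cells. In all, without a replicate block, 1 member rose and 0 fell in WT cells, and 0 rose and 1 fell in KO cells. Over all genes tested, 9.70% were called higher and 10.8% lower in mLN in WT cells, and 11.4% and 13.9% in KO cells.

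**Figure D2:**
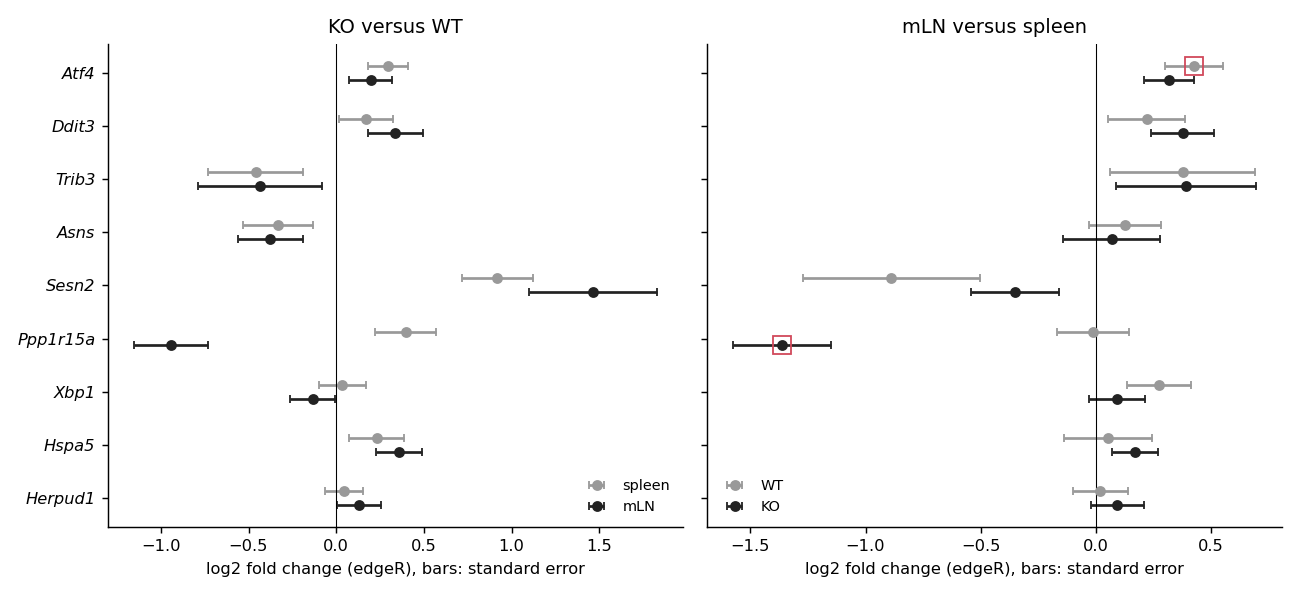
Log2 fold change of the 9 members tested (edgeR, horizontal axis; bars are standard errors) for KO versus WT in spleen and mLN (left) and for mLN versus spleen in WT and KO cells (right), with a red square around values at an adjusted p under 0.05. In these fits without a replicate block, the squares mark Atf4 in WT cells (0.43) and Ppp1r15a in KO cells (-1.36). No difference between genotypes carries one.

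Atf4 (ENSMUSG00000042406, chr15:80255184-80257541, plus strand), the transcription factor at the centre of the branch, was at 54.3, 68.5, 63.7 and 51.9 CPM in WT spleen and at 65.4, 65.6, 81.0 and 77.2 CPM in KO spleen. In mLN it was at 81.0, 86.3 and 66.6 CPM in WT and at 95.0, 78.9, 86.5 and 99.7 CPM in KO samples. The lowest mLN sample of each genotype fell within the spleen range of the same genotype, and WT and KO overlapped in both organs. The means were 59.6 ± 7.79, 72.3 ± 8.01, 78.0 ± 10.2 and 90.0 ± 9.23 CPM (SD) in WT spleen, KO spleen, WT mLN and KO mLN. From spleen to mLN, Atf4 rose by a log2 fold change of 0.43 in WT cells (SE 0.13, adjusted p = 0.0405, edgeR). The KO value was 0.32 (SE 0.11, adjusted p = 0.0526 by edgeR and 0.0292 by DESeq2). The WT call was lost without spleen replicate 1 (adjusted p = 0.107) or 4 (0.0771) and without mLN replicate 1 (0.116) or 2 (0.128), at log2 fold changes of 0.36 to 0.39. KO cells passed without spleen replicate 3 (0.0408) or mLN replicate 2 (0.0325). Between genotypes the log2 fold change was 0.29 in spleen (SE 0.11, adjusted p = 0.185) and 0.20 in mLN (SE 0.12, adjusted p = 0.484).

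In WT cells, samples with the same replicate number deviated together across the organs, so the organ comparison was also fitted with the replicate as a block. The blocked fit called 3 of 9 members, 2 higher and 1 lower in mLN, against 14.6% of all genes higher and 15.3% lower, a share near that of the members. Atf4 had a blocked log2 fold change of 0.47 (adjusted p = 0.00345). Sesn2 had -0.85 (adjusted p = 0.0221) against -0.89 without the block (0.133), and Xbp1 0.26 (adjusted p = 0.0201) against 0.27 without it (0.196).

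Ddit3 (ENSMUSG00000025408, chr10:127290774-127296288, plus strand) encodes CHOP, a transcription factor induced by ATF4 that promotes death under lasting ER stress. It was at 17.3, 18.0, 22.7 and 16.3 CPM in WT spleen and at 24.5, 18.6, 17.1 and 22.8 CPM in KO spleen. The mLN values were 18.1, 24.8 and 20.5 CPM in WT and 25.6, 29.7, 27.5 and 24.7 CPM in KO samples. In KO cells every mLN sample lay above every spleen sample, as 28.7% of all genes tested did in one direction or the other (31.5% in WT cells), at a log2 fold change of 0.38 (SE 0.14, adjusted p = 0.0668 by edgeR and 0.0427 by DESeq2, which called 28.4% of all genes in this comparison). KO against WT gave 0.17 in spleen (SE 0.15, adjusted p = 0.580) and 0.34 in mLN (SE 0.16, adjusted p = 0.329), and the groups overlapped in both. Ddit3 shares 68 exon bases with Mars on the opposite strand, which reached 953 reads in a sample, and the counting is not stated to use strand.

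The other ATF4 targets among the members were lower on average in KO cells (Asns and Trib3) or barely counted (Chac1). Asns (ENSMUSG00000029752, chr6:7675169-7693254, minus strand), asparagine synthetase, was at 20.8, 16.4, 18.0 and 17.6 CPM in WT spleen and at 10.8, 10.7, 18.1 and 17.5 CPM in KO spleen. In mLN it was at 22.2, 16.4 and 19.4 CPM in WT and at 12.3, 15.8, 17.4 and 14.6 CPM in KO cells. KO means were the lower in both organs, with overlapping groups (log2 fold change -0.33, SE 0.20, adjusted p = 0.376 in spleen; -0.38, SE 0.19, adjusted p = 0.363 in mLN, edgeR). Replicates 1 and 2 of KO spleen stood apart from 3 and 4, the samples that also had the higher Sesn2.

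Trib3 (ENSMUSG00000032715, chr2:152337422-152344032, minus strand) encodes a pseudokinase that binds and restrains ATF4. It was low, at 2.09, 2.35, 3.60 and 4.11 CPM in WT spleen and 1.68, 2.32, 2.16 and 2.57 CPM in KO spleen. In mLN it was at 3.05, 3.96 and 4.58 CPM in WT and at 3.78, 2.39, 2.08 and 3.21 CPM in KO samples. The log2 fold change of KO against WT was -0.46 in spleen (SE 0.27, adjusted p = 0.372) and -0.43 in mLN (SE 0.35, adjusted p = 0.609, edgeR), and the groups overlapped in each organ.

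Chac1 (ENSMUSG00000027313, chr2:119351229-119354381, plus strand), a glutathione-degrading enzyme induced strongly by ATF4, was close to the limit of counting and passed the filter on low counts in no comparison. It had 5, 1, 1 and 0 reads in WT spleen and 4, 3, 2 and 0 reads in KO spleen. In mLN there were 5, 0 and 6 reads in WT and 0, 7, 1 and 0 reads in KO samples. A count of 0 allows a level of up to 3 reads, which is 0.266 to 0.320 CPM depending on the sample, for counting error only.

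The ER chaperone Hspa5 (ENSMUSG00000026864, chr2:34771970-34777547, plus strand) was at 1569.7, 916, 1226 and 1069 CPM in WT spleen and at 1264, 1359.6, 1345 and 1594 CPM in KO spleen. In mLN it was at 1461, 1044 and 1121 CPM in WT and at 1302, 1598, 1544 and 1815 CPM in KO cells. WT replicate 1 was the highest WT sample in each organ and overlapped the KO samples. The log2 fold change of KO against WT was 0.23 in spleen (SE 0.16, adjusted p = 0.442) and 0.36 in mLN (SE 0.13, adjusted p = 0.226, edgeR). From spleen to mLN it was 0.05 in WT (SE 0.19, adjusted p = 0.873) and 0.17 in KO cells (SE 0.10, adjusted p = 0.249).

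Herpud1 (ENSMUSG00000031770, chr8:94386438-94395377, plus strand) was among the steadiest members. It was at 179, 132, 138 and 155 CPM in WT spleen, at 134, 158, 154 and 170.4 CPM in KO spleen, at 160.2, 141 and 146 CPM in WT mLN and at 128, 166, 169 and 196 CPM in KO mLN. Its log2 fold change lay between 0.02 and 0.13 in the 4 comparisons, with adjusted p of at least 0.599 (edgeR), and the groups overlapped in all 4.

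Xbp1 (ENSMUSG00000020484, chr11:5520659-5525893, plus strand) was at 284, 198, 227 and 259 CPM in WT spleen and at 203, 241, 256 and 282 CPM in KO spleen. In mLN it was at 304, 247 and 303 CPM in WT and at 219, 302, 235 and 292 CPM in KO cells. KO against WT gave a log2 fold change of 0.04 in spleen (SE 0.13, adjusted p = 0.909) and -0.13 in mLN (SE 0.13, adjusted p = 0.671, edgeR), with overlapping groups.

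Hspa5, Herpud1 and Xbp1 varied together from sample to sample, and Asns did so less closely. After subtraction of the group means from log2 CPM, over 15 samples and 15437 other genes, the genes most like Hspa5 were Derl2 (Pearson r = 0.94), a channel component of ER-associated degradation, Map2k1 (0.94), Dnajc3 (0.93), an ER co-chaperone of BiP, Dynll1 (0.92) and Med28 (0.92). Herpud1 ranked 37 (r = 0.85) and Xbp1 ranked 95 (r = 0.79). Asns ranked 599 (r = 0.62), and Atf4 had r = 0.02 with Hspa5. Most like Atf4 were Snord104 (0.91), Ddx39 (0.90), Serpinb6b (0.90), 4921524J17Rik (0.90) and Mrpl1 (0.89), while Sesn2, the nearest other member, ranked 1408 (r = 0.50). These correlations describe the 15 libraries, which share depth and preparation and, in part, a replicate number.

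**Figure D3:**
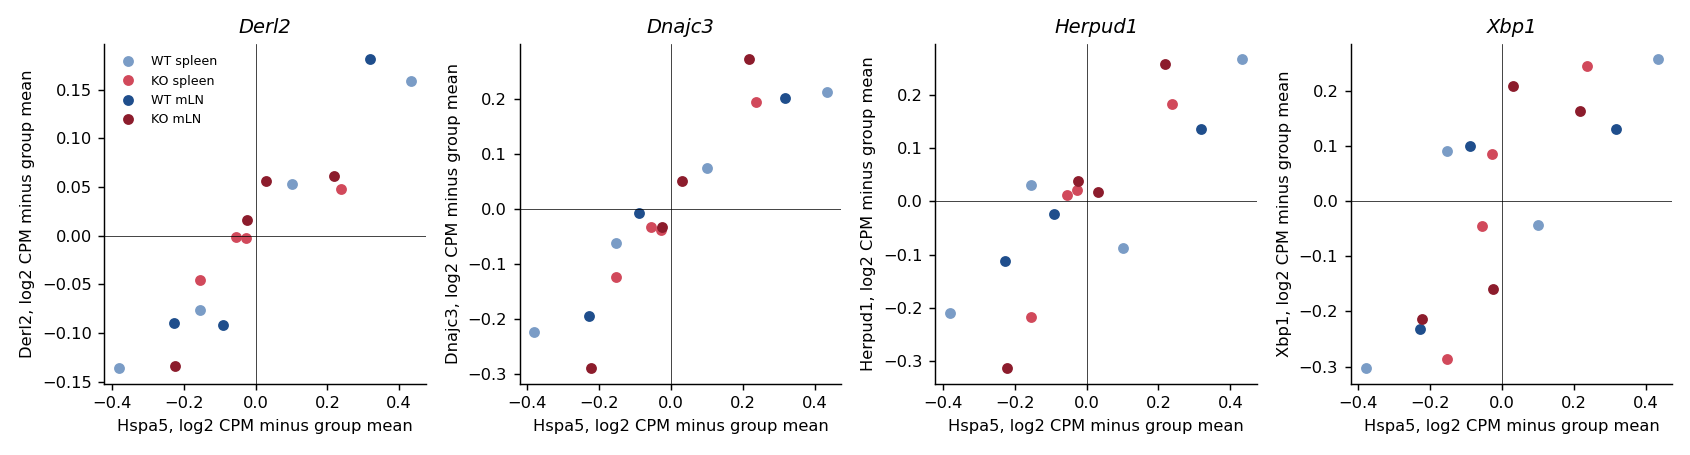
Log2 CPM minus the mean of its group for Hspa5 (horizontal axis) against Derl2, Dnajc3, Herpud1 and Xbp1 (vertical axes), with each point a sample coloured by group. The 15 samples rise together in each panel, most closely for Derl2 (r = 0.94) and least for Xbp1 (r = 0.79).

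The wider pathway was described by lists of related genes, whose counts stand against 20.5% (spleen) and 15.7% (mLN) of all genes at an unadjusted p under 0.05 and 5.77% and 4.11% called by DESeq2. Of 30 other ATF4 targets tested, edgeR called 0 between genotypes in spleen and 0 in mLN (4 at an unadjusted p under 0.05 in each, 1 and 2 called by DESeq2), with median log2 fold changes of -0.03 and -0.02. Of 17 genes for eIF2, its kinases and the ER stress sensors it called 0 in each organ (1 and 2 at an unadjusted p under 0.05, 0 and 1 by DESeq2). Among 21 ER chaperones and folding enzymes, 0 were called in either organ by edgeR or DESeq2 (2 and 1 at an unadjusted p under 0.05). Of these 21, 19 had a higher mean in KO spleen (median 0.11) and 15 in KO mLN (median 0.13). Among all genes tested, 7021 of 14254 were higher on average in KO spleen and 7115 of 14359 in KO mLN. Dnajc3 of this list varied with Hspa5 from sample to sample (r = 0.93), so the directions need not be separate observations. For 28 genes of ER-associated degradation and translocation edgeR called 0 in each (7 and 3 at an unadjusted p under 0.05, 3 and 1 by DESeq2).

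Between the organs genes of these lists moved in both directions (values in brackets are log2 fold changes of mLN against spleen with the adjusted p of edgeR), and their counts stand against all-gene shares of 9.70% higher and 10.8% lower in WT and 11.4% and 13.9% in KO cells. Among the other ATF4 targets 5 of 30 rose and 3 fell in mLN in WT cells, and 5 rose and 2 fell in KO cells. Eprs, the glutamyl-prolyl-tRNA synthetase, rose in both (0.51, adjusted p = 0.00701 in WT; 0.51, adjusted p = 0.000858 in KO), as did Cebpg, a dimer partner of ATF4 (0.82, adjusted p = 0.0136; 1.40, adjusted p = 3.69e-05). Slc7a1, an arginine transporter, fell in both (-0.56, adjusted p = 0.0127; -0.64, adjusted p = 0.0204). Of the 21 chaperones 1 rose and 1 fell in WT and 2 rose and 1 fell in KO cells. Hyou1, an ER chaperone of the large HSP70 class, fell in both, from 34.3 to 55.0 CPM in WT spleen to 14.8 to 21.9 CPM in WT mLN and from 50.2 to 69.5 to 13.6 to 15.9 CPM in KO cells (-1.31, adjusted p = 0.00296; -1.99, adjusted p = 2.99e-06), unlike Hspa5. Erp29 rose in WT cells (0.36, adjusted p = 0.0210; 0.14, adjusted p = 0.316 in KO) and Canx in KO cells (0.22, adjusted p = 0.0299; 0.20, adjusted p = 0.203 in WT). Whether these differ between genotypes is the question of the interaction, in which edgeR called 0 of 15438 genes. The absence of a call there does not show that the shifts of a listed gene were equal.

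In the eIF2 and sensor list 2 of 17 rose and 3 fell in WT cells, and 3 rose and 4 fell in KO cells. Eif2b2, a subunit of the eIF2 exchange factor, rose in both (0.54, adjusted p = 0.00444; 0.57, adjusted p = 0.000297). Ppp1r15b, the constitutive counterpart of Ppp1r15a, fell in both (-0.73, adjusted p = 0.00740; -0.43, adjusted p = 0.00265), as did Atf6b (-0.45, adjusted p = 0.0262; -0.57, adjusted p = 0.000116). In the degradation and translocation list 4 of 28 rose and 4 fell in WT cells and 4 rose and 7 fell in KO cells, among them Erlec1 (-0.78 in WT, adjusted p = 0.00126; -0.75 in KO, adjusted p = 0.00122), Ssr4 (0.52 in WT, adjusted p = 0.00264; 0.49 in KO, adjusted p = 0.00748) and Syvn1 (-0.72 in WT, adjusted p = 0.00924; -0.67 in KO, adjusted p = 0.00101). With the replicate block in WT cells, 11 of 21 chaperones (9 higher), 13 of 30 other ATF4 targets (6 higher), 7 of 17 genes of the eIF2 list (3 higher) and 12 of 28 of degradation and translocation (7 higher) were called, against 14.6% higher and 15.3% lower over all genes.

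Ppp1r15a is also an immediate early gene, and genes of that class and heat shock genes moved in the same libraries. Of 20 such genes (19 tested in spleen), 3 rose in KO spleen: Fos (47.9, 60.1, 21.2 and 33.8 CPM in WT and 180.0, 150.6, 151.0 and 110.5 CPM in KO; log2 fold change 1.88, adjusted p = 0.0133), Fosb (2.08, adjusted p = 0.0276) and Hspa1a (0.1 to 0.5 CPM in WT and 2.9 to 56.3 CPM in KO, adjusted p = 0.0444). DESeq2 called 7 higher and 2 lower in KO spleen, against 5.77% of all genes. In mLN 2 fell in KO cells by edgeR, Junb (-0.87, adjusted p = 0.0326) and Ier2 (-0.50, adjusted p = 0.0492). The edgeR shares over all genes were 0.547% higher and 0.751% lower in KO spleen, and 0.348% higher and 0.292% lower in KO mLN. The whole list had 10 genes higher and 10 lower on average in KO mLN (median -0.03), but its classes were not mixed evenly. The 10 lower were all immediate early genes (Fos, Fosb, Jun, Junb, Egr1, Ier2, Ier3, Dusp1, Zfp36 and Klf6). The 10 higher were Jund, Nr4a1, Btg2 and the heat shock genes of the list. Without overlap of the groups were 5 higher and 5 lower, against 14.4% of all genes in either direction. DESeq2 called 4 higher and 4 lower, against 4.11% of all genes. Nr4a1 (0.73, adjusted p = 0.121) and Btg2 (0.38, adjusted p = 0.0707) were among those higher in every KO sample. From spleen to mLN, 7 of 20 fell and 1 rose in KO cells, with Junb (-1.04, adjusted p = 5.97e-06) and Egr1 (-1.08, adjusted p = 2.97e-05) at the smallest p, whereas in WT cells 4 of 18 rose and 0 fell, among them Hspe1 (0.70, adjusted p = 0.00115) and Hsp90aa1 (1.05, adjusted p = 0.00222). Of all genes tested, 13.9% fell and 11.4% rose in KO cells, and 9.70% rose and 10.8% fell in WT cells. With the replicate block 5 rose and 5 fell in WT cells, against 14.6% and 15.3% of all genes. The KO effect in mLN minus that in spleen was negative for 19 of the 20, as it was for Ppp1r15a, although 0 were called by edgeR or DESeq2 (6 at an unadjusted p under 0.05). This difference was negative for 7869 of all 15438 genes tested, and 4.22% of them had an unadjusted p under 0.05 (edgeR). Genes of the list also varied together. Replicate 4 was the highest sample of KO spleen and of KO mLN for Hsph1 (294.8 and 277.4 CPM) and for Dnajb1 (278.0 and 269.6 CPM). The directions of the 20 genes therefore need not be separate observations. The summed T cell markers were also higher in KO mLN (10301 to 10338 CPM) than in WT mLN (9735 to 10026 CPM) and KO spleen (9301 to 9685 CPM). The part of either in the Ppp1r15a values was not tested.

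**Figure D4:**
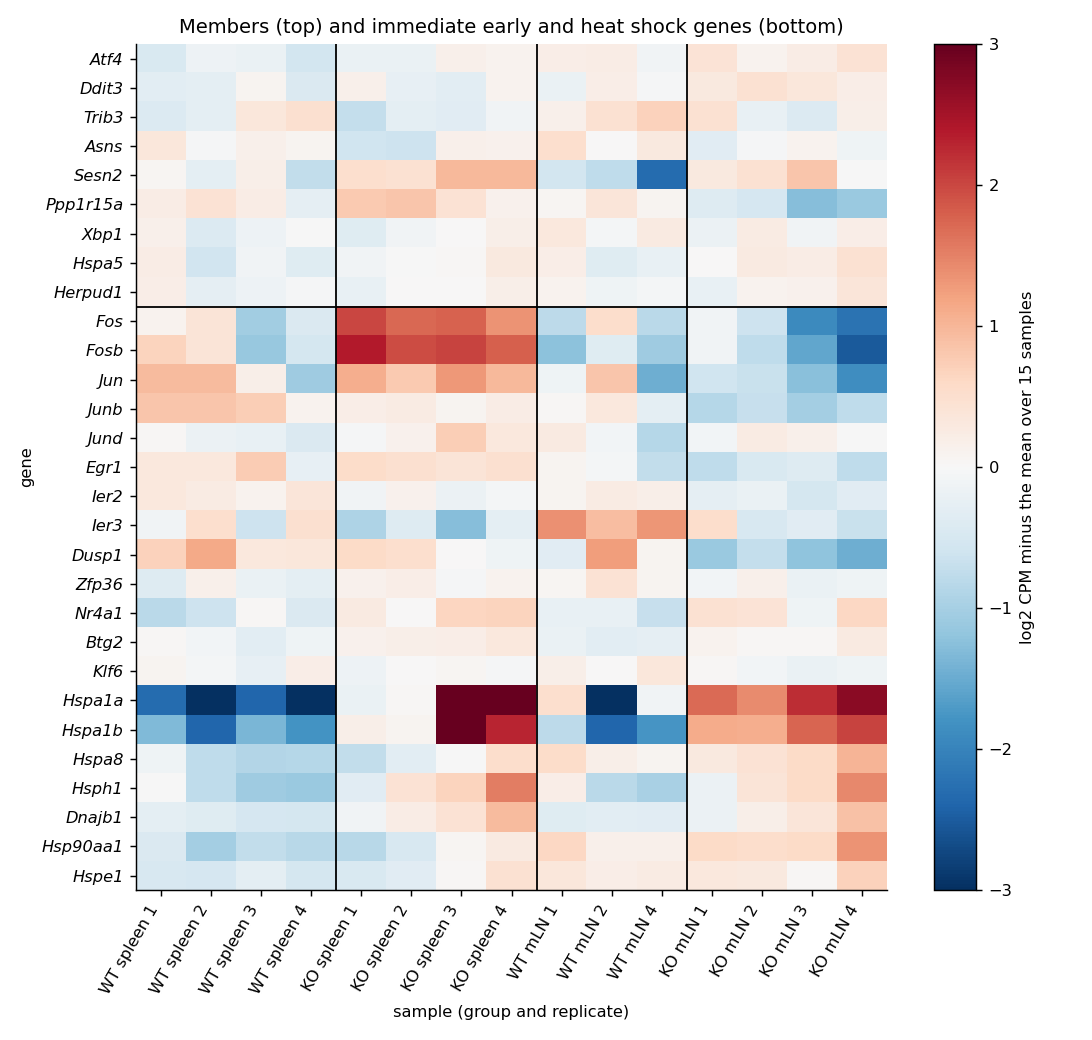
Log2 CPM minus the mean of 15 samples (colour, limited to 3 on each side) for the 9 members tested (rows above the line) and 20 immediate early and heat shock genes (below it) in each sample (columns, by group and replicate). Ppp1r15a, Fos, Fosb and Dusp1 are lowest in KO mLN replicates 3 and 4, and Fos and Fosb are highest in the 4 KO spleen samples.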

How the data were processed

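The authors sequenced libraries of the NEBNext SingleCell/Low Input kit as single-end reads, aligned them to GRCm38 with GENCODE M23 using STAR 2.6.1a and deposited raw counts per gene without normalization. The submitters' processing notes also name bcl2fastq 2.19.1.403, RSEM and DESeq2 1.22.2. The strand setting is not given in the sources used here, so overlapping genes are uncertain. Reads that name no gene (67.4% to 70.3% of all reads) were left out. Of the uniquely mapped reads, 58.4% to 63.4% lay on no annotated feature and 0.752% to 0.987% were ambiguous between genes. Symbols came from GENCODE M21 (55240 of 55421 genes matched). Of 2 identifiers named Ddit3 the one with 0 reads was not used. Reads carry no molecular identifiers.

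Each pair of groups was tested from the counts in R 4.3.3 with edgeR 4.0.16 (low-count filter, TMM, quasi-likelihood test). P-values were adjusted over all genes tested by the Benjamini-Hochberg method, with a limit of 0.05. The standard error is the log2 fold change divided by the root of F. The interaction used all 15 samples and, without the replicate block, treated spleen and mLN samples as independent. DESeq2 1.42.0, other normalization and filters, a replicate block and leaving out each sample were alternatives. The procedure was tested on simulated counts. Same-numbered samples correlated across organs at 0.243 to 0.291 in WT, where all 3 pairs passed 0.1, and at 0.0258 to 0.259 in KO cells. In KO cells the mean was 0.124, against -0.0412 for pairs of other numbers. Counts and fold changes came from group means only in both genotypes, unless the replicate block is named. That block is given for WT cells in the results and for KO cells among the alternatives. Promoter windows came from RefSeq (GRCm38.p6) and levels per kb from the union of exons.

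The members and lists were chosen with earlier results of these data known. All members are named, with Prkaa1, up to 4 called genes of each list per genotype comparison and up to 2 per organ comparison by smallest p, and the 5 genes most like Atf4 and Hspa5. Dusp1, Nr4a1, Btg2, the immediate early genes named by direction in KO mLN, single markers of B and plasma cells, and the values of listed genes in the other genotype were chosen after the values were seen.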

Additional observations from a re-analysis of the deposited data

How the results depend on the processing

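Among the fold changes of the members, 235 of 261 values under other settings kept their direction and side of the limit, 23 passed it and 3 reversed. With 1 sample left out, 365 of 405 did, 4 lost the call, 4 gained it and 32 reversed. Against 0 members called in spleen between genotypes, DESeq2 called 1 and no filter 3; in mLN, against 0, DESeq2 called 2, no filter 3 and 1 fit of all 15 samples 2; in both, leaving out a sample gave 0 to 1. Between organs in WT cells (1 called), no filter gave 2, the replicate block 3, an absolute log2 fold change above 1 gave 0, and leaving out a sample 0 to 1. In KO cells (1 called), DESeq2 gave 3, and no filter, a minimum of 10 counts per sample, the joint fit and the replicate block each gave 2, with 1 to 2 when a sample was left out. For the interaction (0 called), DESeq2, no filter and the replicate block each gave 1, namely Ppp1r15a (blocked adjusted p = 0.0185), and leaving out a sample 0 to 0.

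Over all genes, calls between genotypes in spleen were 185, and 823 by DESeq2, 1422 with no filter, 85 with all 15 samples, 17 with the replicate block, 64 above a log2 fold change of 1 and 12 to 324 with a sample left out. In mLN they were 92, and 590, 913, 500, 1, 47 and 4 to 117. Between organs there were 2980 in WT (4351 with the replicate block; 723 above 1; 1816 to 2780 with a sample left out) and 3602 in KO cells (763; 2631 to 3669). The interaction gave 0, and 4 by DESeq2, 112 with no filter, 3 with the block and 0 to 0 with a sample left out.

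The reversed values were small. With the replicate block, the organ difference in WT cells was 0.022 for Ppp1r15a (-0.013 without) and -0.0024 for Herpud1 (0.02), and the interaction of Trib3 -0.14 (0.02). With a sample left out the KO effect in spleen ranged from -0.056 to 0.125 for Xbp1 and -0.021 to 0.14 for Herpud1, the organ difference in WT from -0.14 to 0.079 for Ppp1r15a, -0.12 to 0.21 for Hspa5 and -0.050 to 0.11 for Herpud1, that in KO from -0.058 to 0.20 for Asns, and the interaction from -0.16 to 0.16 for Trib3, -0.17 to 0.088 for Asns, -0.039 to 0.28 for Hspa5 and -0.013 to 0.17 for Herpud1. The causes were not tested.

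Same-numbered WT and KO samples of an organ correlated at -0.210 to 0.146 in spleen (1 of 8 samples best with its own number) and at -0.0531 to 0.00337 in mLN (0 of 6). So few pairs cannot show whether such samples share more than a number. In KO cells 5 of 8 samples correlated best with their own number across organs. KO mLN replicate 3 has no WT partner and adds nothing to the blocked mLN fit. Chac1 was too low for a test. Without strand information, reads in the 68 exon bases that Ddit3 shares with Mars cannot be assigned.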
